A study of Homo sapiens with 6 samples.

Results

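The genes described here encode RAB, ARF and ARL proteins, small GTPases most of which mark the membranes of vesicles and organelles. They were the spots whose annotated symbol, brought up to date by gene ID, is RAB or ARL followed by a number, or ARF1 to ARF6. RAB3A and RAB3C of the synaptic vesicle, and regulators or binding partners with similar names such as RAB3IP, RAB11FIP4, RAB5IF, ARL2BP and ARL6IP5, were left out. This gave 41 genes on 54 spots, of 6255 named genes on 9169 spots tested: 31 RAB, 5 ARF and 5 ARL genes. The spots were assigned by annotation alone, without reference to signal, and all 54 remained after spots at the stand-in value on every array had been left out.

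A small GTPase of this kind acts as a switch. Bound to GTP it typically sits on a membrane and recruits effectors such as coats, tethers and motor proteins, and after GTP hydrolysis it returns to the inactive form. RAB proteins are held on membranes by prenyl groups and shuttled by the GDP dissociation inhibitors, ARF proteins by a myristoyl group, and each compartment of the secretory and endocytic routes carries its own set. In neurons and neuroblastoma cells these routes supply the growing neurite with membrane and move peptide granules and growth factor receptors.

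RNA abundance was measured in SH-SY5Y, an established human neuroblastoma line, in 3 GFP control and 3 DN-TRF2 samples. GFP control cells carried the vector labelled pEGF-C2 with no insert, and DN-TRF2 cells carried pIRES2-EGFP with a dominant-negative form of TRF2, a telomere-binding protein, so that insert and backbone cannot be told apart. All cells were selected in geneticin at 500 µg/ml as a pool, and RNA was taken on day 7 after transfection. The 3 samples of a group came from independent experiments, and for each sample roughly 5 µg of RNA was radiolabelled for 1 array of 9600 cDNA spots. The comparison asks which genes differ in abundance when TRF2 is inhibited; cells with wild-type TRF2, and the gene encoding TRF2, are not analysed here.

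The arrays had median intensities between 480 and 712, and between 1.51% and 2.48% of spots per array lay at or under the stand-in value of 10. Of 21 sympathoadrenal markers 11 had a named spot, among them DBH, DDC, CHGA, CHGB and GATA3 (6 with a higher mean in DN-TRF2), as had 5 of 15 blood markers (2 higher) and 11 of 13 liver or epithelial markers (6 higher). None passed limma's adjusted threshold. At an unadjusted limma p under 0.05, 1 of the 11 sympathoadrenal markers, GAP43, was higher (9.09%, beside 2.49% of all genes). Higher at that level were 0 of the 5 blood and 0 of the 11 liver or epithelial markers. The DN-TRF2 arrays all lay above the controls in 2 of the 5 blood markers (40.0%, beside 4.70% of all genes). They did so in 1 sympathoadrenal marker (9.09%) and 0 liver or epithelial markers, and all lay below in 0 markers of each list. Identity was not read from their levels, because signal compared poorly between spots. Spots of abundant classes (ribosomal proteins, tubulins, actins, GAPDH and EEF1A1) did lie above median signal in 93.5%, beside 48.0% of other named spots. But over the 1481 genes with at least 2 spots, mean signal correlated at 0.138 between the gene's first spot and its last, and their differences shared a sign in 51.0% (a description across genes, whose spots lie on the same arrays). Levels are therefore compared between arrays within a gene only, and a value belongs to the spot so annotated. The annotation of a spot may itself be wrong. A cDNA spot can also take up RNA of close relatives such as ARF1 and ARF3. Similarity between relatives was not computed.

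The vesicle GTPase genes lay evenly on both sides of 0 when DN-TRF2 was set against GFP control. As these are bulk samples, fewer cells with an RNA and less of it per cell cannot be told apart. Of the 41 genes, 21 had a higher mean in DN-TRF2 (51.2%) and 20 a lower one, beside 48.0% higher among all 6255 genes. Their median difference was 0.00014 (log2 of DN-TRF2 over GFP control), beside -0.0067 over all genes, and the middle of their distribution ran from -0.11 to 0.10, as it did over all genes (-0.11 to 0.10). The median absolute difference was 0.11 in both. The lowest and highest members were ARF5 at -0.41 and RAB7B at 0.36, within a range over all genes of -0.90 to 1.09.

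**Figure D1:**
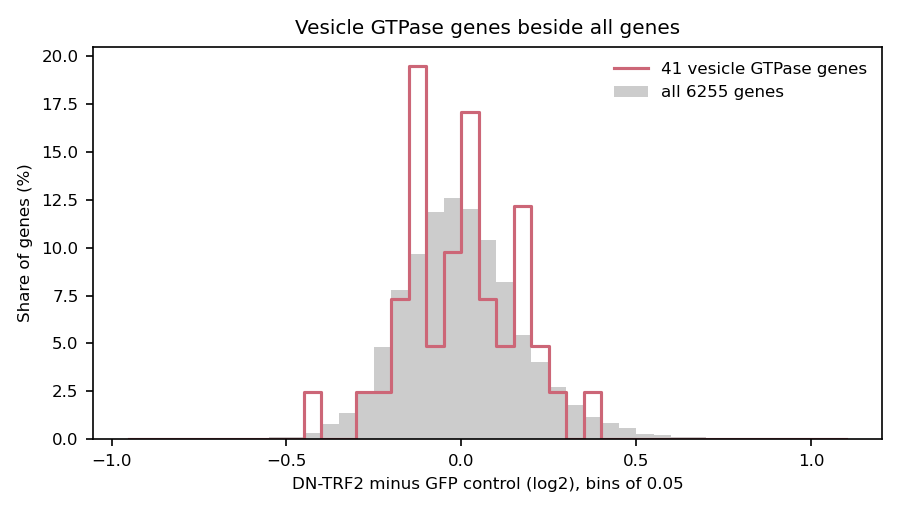
Share of genes (vertical axis, percent) by difference between the groups (horizontal axis, log2 of DN-TRF2 over GFP control, in bins of 0.05), for all 6255 genes (grey bars) and the 41 vesicle GTPase genes (line). The members spread on both sides of 0 from -0.41 to 0.36, inside the range of all genes.

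No member passed limma's test at a Benjamini-Hochberg adjusted p under 0.05 over all genes (0 of 41, beside 0.00% of all genes), and the smallest adjusted p was 1.00. At an unadjusted p under 0.05 there was 1 lower member, ARF5 (2.44%, beside 1.07% of all genes), and 0 higher (0.00%, beside 2.49%). Without moderated variance 0 members passed either, with 1 lower and 1 higher member at an unadjusted p under 0.05. In the fit with moderated variance 156 of all genes were higher and 67 lower at that level.

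The arrays nevertheless bounded the differences. For all 41 members limma's 95% interval lay within a 2-fold change either way (98.4% of all genes), and for 29 members it lay within a 1.5-fold change (70.7%, beside 74.9%). The half-width of the interval had a median of 0.35 (log2), from 0.27 for ARL2 to 0.66 for RAB2A. These intervals are for each gene alone, not corrected for their number. For the 10 members with several spots they are intervals of the average and do not bound each spot. The brightest spot of ARF3 had an interval of 0.14 to 0.80, beside -0.29 to 0.38 for the average. All intervals hold on a scale of log2 of intensity plus 50, which understates changes of dim spots. Of the 41 genes 4 lay under 7 on that scale, where the added 50 makes up much of the value: RAB11A, RAB21, RAB39B and RAB7B. With an offset of 1 in place of 50, 39 intervals lay within a 2-fold change, the exceptions being RAB11A (-0.51, interval -1.09 to 0.056) and RAB7B (0.88, interval 0.16 to 1.59), and 22 within a 1.5-fold change.

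**Figure D2:**
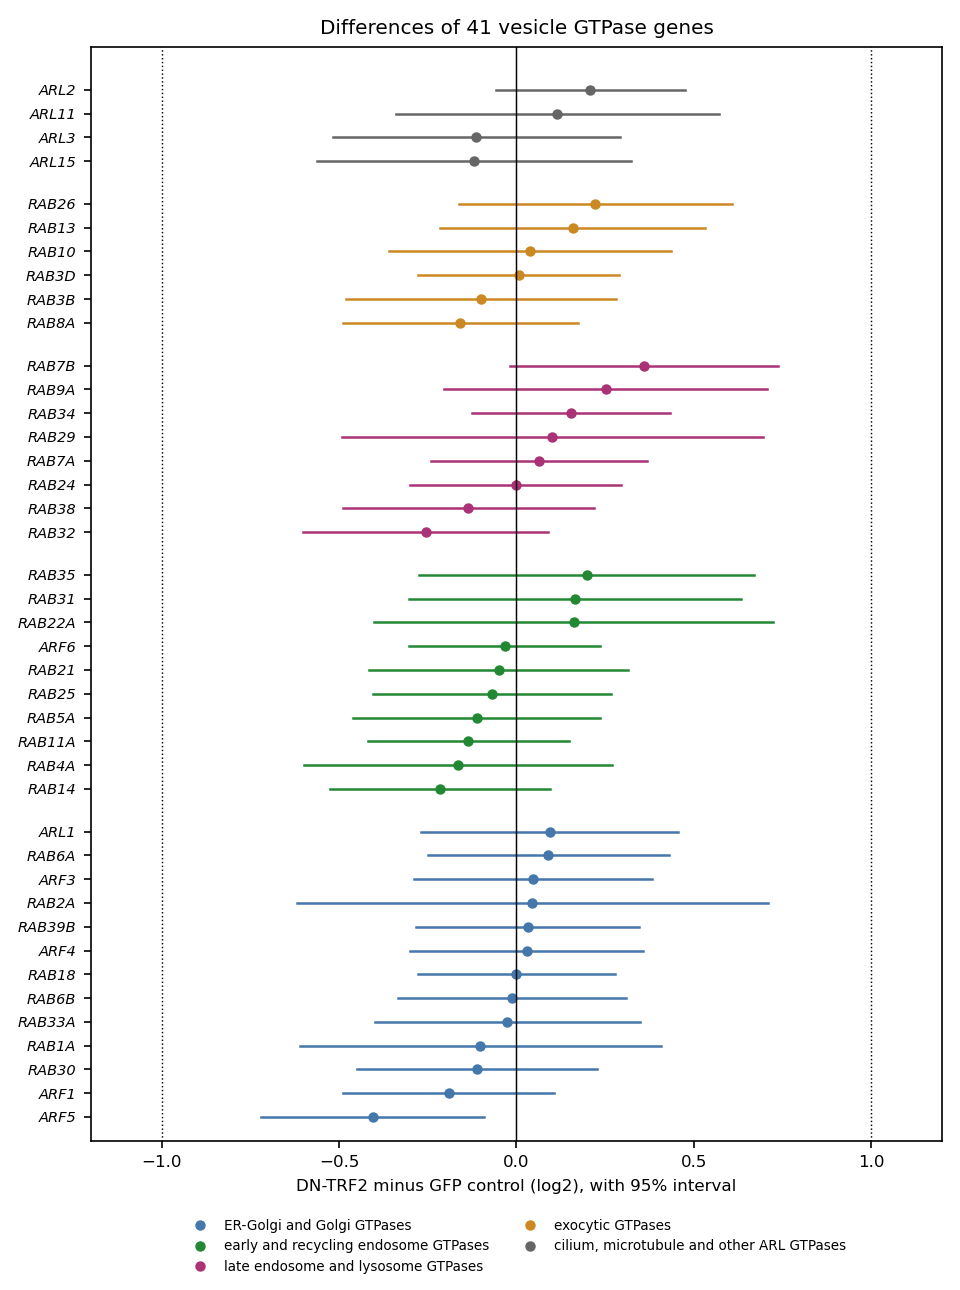
Difference of each of the 41 genes (horizontal axis, log2 of DN-TRF2 over GFP control; points) with its 95% interval from limma (lines), by compartment (colours); dotted lines mark a 2-fold change. Every interval lies between the dotted lines, and that of ARF5 alone lies wholly on one side of 0.

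ARF5, a class II ARF of the Golgi and the ER-Golgi intermediate compartment, had the lowest difference and is the one member whose DN-TRF2 arrays all lay below all GFP control arrays. Its normalized signals were 9.76, 9.46 and 9.55 (log2) on GFP control arrays 1, 2 and 3 and 9.02, 9.26 and 9.28 on DN-TRF2 arrays 1, 2 and 3. At each replicate number the DN-TRF2 array was the lower, by -0.73, -0.21 and -0.28. The difference of -0.41 ± 0.14 (SE, n = 3 arrays per group, interval -0.72 to -0.09), a 0.755-fold level, had an unadjusted limma p of 0.0172 and an adjusted p of 1.00. Groups were apart downward in 1 of 41 members (2.44%), beside 4.25% of all genes. Leaving out GFP control replicate 1 gave -0.32 with an unadjusted limma p of 0.0524, and leaving out DN-TRF2 replicate 1 gave -0.32 with one of 0.0775. ARF5 has 1 spot, so no other clone could be set beside it.

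ARL2, which works with the tubulin-folding cofactors and also carries lipid-modified cargo, is the one member whose DN-TRF2 arrays all lay above the controls. GFP control arrays gave 11.92, 11.84 and 11.90 (log2), and DN-TRF2 arrays 12.03, 12.09 and 12.17. The difference was 0.21 ± 0.12, a 1.15-fold level, with an unadjusted limma p of 0.111 and an adjusted p of 1.00. Its spread within groups was small, with SDs of 0.04 and 0.07, so the groups parted at a small difference. The separation occurred upward in 1 of 41 members (2.44%), beside 4.70% of all genes. Scaling each array to its median in place of quantile normalization gave 0.092.

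The promoter sequences of ARF5 and ARL2 are shown as those of the members whose groups did not overlap, and that of RAB30 as the one member promoter that held the hexamer TTAGGG, the repeat unit of telomeric DNA that TRF2 binds. They run from 250 bases before to 50 bases after the RefSeq gene start (build GRCh38.p14), 5′ to 3′ on the gene's strand, with capitals for the GC box GGGCGG, the CCAAT box CCAAT, the E-box CACGTG, the hexamer TTAGGG, and their reverse complements.
ARF5 (chr7:127588161-127588460, plus strand): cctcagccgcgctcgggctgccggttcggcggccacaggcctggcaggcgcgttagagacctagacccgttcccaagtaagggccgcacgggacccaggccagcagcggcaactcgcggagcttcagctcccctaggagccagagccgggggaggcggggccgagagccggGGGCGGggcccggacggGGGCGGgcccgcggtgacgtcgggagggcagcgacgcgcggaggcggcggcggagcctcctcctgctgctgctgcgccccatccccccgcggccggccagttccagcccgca
ARL2 (chr11:65013910-65014209, plus strand): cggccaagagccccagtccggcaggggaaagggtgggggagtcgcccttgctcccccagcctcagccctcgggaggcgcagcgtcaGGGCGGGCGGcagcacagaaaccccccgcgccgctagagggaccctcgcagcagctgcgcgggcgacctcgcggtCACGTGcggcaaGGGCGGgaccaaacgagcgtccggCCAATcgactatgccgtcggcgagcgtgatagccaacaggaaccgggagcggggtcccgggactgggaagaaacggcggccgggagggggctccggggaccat
RAB30 (chr11:83071848-83072147, minus strand): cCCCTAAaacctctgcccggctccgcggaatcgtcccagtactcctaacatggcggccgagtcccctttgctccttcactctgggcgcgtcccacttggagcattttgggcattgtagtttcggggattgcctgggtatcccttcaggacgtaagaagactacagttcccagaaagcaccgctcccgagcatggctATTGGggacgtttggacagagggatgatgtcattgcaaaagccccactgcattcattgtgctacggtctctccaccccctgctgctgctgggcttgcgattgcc
ARF5 carried 2 GC boxes, with no CCAAT box or E-box in this window. ARL2 carried 3 GC boxes, of which 2 overlap, 1 CCAAT box and 1 E-box. RAB30 carried no GC box, a CCAAT box on the opposite strand and the hexamer, also on the opposite strand and at the far end of the window, from base -249.

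A promoter was listed for 34 of the 41 genes. The GC box, a site of SP-family factors, was found on either strand in 28 of the 34 (82.4%), beside 68.3% of the 5169 promoters of genes on the array and 45.0% of all 35116 promoters. The median GC content was 68.0% for members, 64.7% for array genes and 58.7% for all promoters. CACGTG, an E-box and the core of the element read by the lysosomal regulator TFEB, occurred in 8 members (23.5%, beside 10.5% and 7.26%). These were ARL2, ARL3, RAB21, RAB24, RAB29, RAB31, RAB4A and RAB5A. Of them only RAB24 and RAB29 are among the late endosome and lysosome GTPases. CCAAT occurred in 6 members (17.6%, beside 38.3% and 34.6%). TTAGGG occurred in 1 member (2.94%, beside 8.59% and 9.05%). These are letter matches in one window and were not tested against the differences.

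ER-Golgi and Golgi GTPases were 13 of the 41 genes, 7 with a higher and 6 with a lower mean, and their median difference was 0.00014 (log2), from -0.41 for ARF5 to 0.09 for ARL1. ARF1, which recruits the COPI and adaptor coats to Golgi membranes, gave 10.31, 10.45 and 10.15 on control arrays and 10.21, 10.05 and 10.08 on DN-TRF2 arrays. Averaged over its 2 spots, the groups overlapped through GFP control replicate 3, and the difference was -0.19 ± 0.13. At the brighter spot alone they did not overlap, with 11.00, 11.34 and 11.11 on control arrays and 10.88, 10.89 and 10.99 on DN-TRF2 arrays. At each replicate number ARF1 was the lower in DN-TRF2, as was ARF5; 5 of 41 members were lower at all 3 numbers (12.2%, beside 15.3% of all genes).

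RAB1A, needed for transport from the ER to the Golgi, gave 9.59, 10.58 and 10.04 on control arrays and 10.01, 9.90 and 10.01 on DN-TRF2 arrays. Its 3 DN-TRF2 values lay together inside the control range, and the difference was -0.10 ± 0.22; it came to -0.34 without GFP control replicate 1 and 0.15 without GFP control replicate 2. RAB6A, of retrograde traffic at the Golgi, gave 7.96, 7.56 and 8.01 on control arrays and 7.93, 7.88 and 7.98 on DN-TRF2 arrays, a difference of 0.09 ± 0.15 with the DN-TRF2 values inside the control range. Its paralog RAB6B, the form enriched in neurons, differed by -0.01 ± 0.14.

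RAB2A, which acts between the ER and the Golgi, had the widest control spread of all members, with 10.44, 9.29 and 10.43 on control arrays and 10.26, 10.19 and 9.85 on DN-TRF2 arrays. GFP control replicate 2 stood apart from the other controls, and RAB2A differed by 0.04 ± 0.29 with all arrays. The remaining members of this group differed by between -0.11 ± 0.15 (RAB30) and 0.09 ± 0.16 (ARL1, a GTPase of the trans-Golgi), with RAB18, of the ER and lipid droplets, at 0.00014 ± 0.12, RAB33A at -0.03 ± 0.16 and RAB39B, a neuronal RAB, at 0.03 ± 0.14.

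ARF3 and ARF4, which also act at the Golgi, have 3 spots each, as has RAB24 of the late endosome group. ARF3 averaged over its spots gave 10.20, 9.78 and 9.83 on control arrays and 10.07, 9.89 and 10.001 on DN-TRF2 arrays, a difference of 0.05 ± 0.15. The brightest spot gave 10.87, 10.66 and 10.93 on control arrays and 11.33, 11.15 and 11.39 on DN-TRF2 arrays. At that spot the groups did not overlap, with a difference of 0.47 ± 0.15, an unadjusted limma p of 0.0105 and an adjusted p of 0.999. The other spots gave -0.02 ± 0.20 and -0.31 ± 0.19, so the clones annotated to ARF3 did not move together. The spots of ARF4 differed by 0.17 ± 0.15, -0.11 ± 0.19 and 0.03 ± 0.22, with a gene mean of 0.03 ± 0.15 from 9.65, 9.51 and 9.86 on control arrays and 9.57, 9.66 and 9.87 on DN-TRF2 arrays.

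Of the 10 members with at least 2 spots, 4 had spots of one sign and 6 had spots of both. The 4 were ARF1, whose spots differed by -0.23 ± 0.15 and -0.15 ± 0.17, RAB4A, RAB7A and RAB7B. Mean signals of the spots of one gene lay between 0.21 and 3.12 (log2) apart. Among these genes, groups did not overlap at single spots of ARF3 and RAB7B (higher in DN-TRF2) and of ARF1 (lower). Such separation was not counted over all spots. Over all genes, on averaged values, it occurred upward in 4.70% and downward in 4.25%. Of the 54 member spots, 2 were higher (of ARF3 and RAB7B) and 1 lower (ARF5) at an unadjusted limma p under 0.05. The shares of all spots were 2.31% higher and 1.10% lower. Averaged over their spots, ARF3 and RAB7B did not reach that level. Limma's adjusted threshold was passed by 0 spots (0.00% of all spots).

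**Figure D3:**
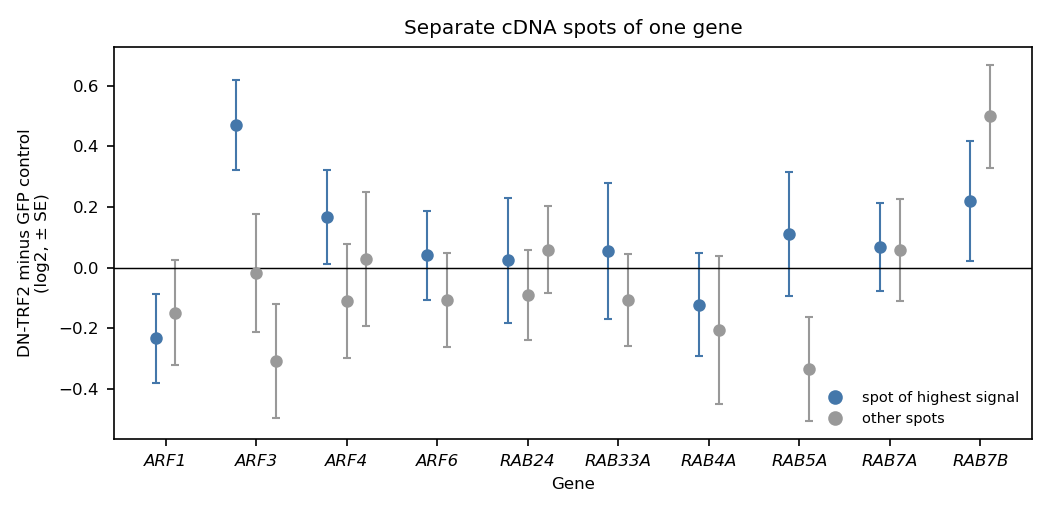
Difference (vertical axis, log2 of DN-TRF2 over GFP control, ± SE from limma) at each cDNA spot of the 10 genes with several spots (horizontal axis); blue marks each gene's spot of highest signal and grey the others. The spots of ARF3 run from -0.31 to 0.47, and those of ARF1, RAB4A, RAB7A and RAB7B each lie on one side of 0.

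Early and recycling endosome GTPases were 10 genes, 3 with a higher and 7 with a lower mean, with a median difference of -0.06. RAB14, of traffic between the Golgi and endosomes, had the lowest, with 7.82, 7.72 and 7.86 on control arrays and 7.52, 7.44 and 7.79 on DN-TRF2 arrays. DN-TRF2 replicates 1 and 2 lay below all controls and replicate 3 among them, and the difference was -0.21 ± 0.14. RAB5A, which drives fusion of early endosomes, gave 9.79, 10.16 and 9.70 on control arrays and 9.89, 9.68 and 9.74 on DN-TRF2 arrays. The groups overlapped and the difference was -0.11 ± 0.15, made up of 0.11 ± 0.20 at its brighter and -0.33 ± 0.17 at its dimmer spot.

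RAB4A, of fast recycling to the surface, gave 10.23, 10.93 and 10.29 on control arrays and 10.23, 10.42 and 10.30 on DN-TRF2 arrays. The high value of GFP control replicate 2 set the difference of -0.16 ± 0.19, which was 0.056 without that array. RAB11A, of the recycling endosome, lay near the floor of the array, with deposited intensities of 24.7, 11.5 and 27.4 on control arrays and 12.6, 10 and 23.9 on DN-TRF2 arrays. The last but one of these is the stand-in value, so the difference of -0.14 ± 0.12, from 6.23, 6.10 and 6.14 against 6.00, 5.91 and 6.14 (log2), has little signal behind it. ARF6, which acts at the plasma membrane and in endosomal recycling, gave 10.26, 10.39 and 10.41 on control arrays and 10.29, 10.29 and 10.37 on DN-TRF2 arrays, a difference of -0.03 ± 0.12 with an interval of -0.30 to 0.24.

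On the higher side of this group, RAB35, which acts in recycling and neurite outgrowth, gave 9.91, 9.35 and 9.39 on control arrays and 9.94, 9.37 and 9.93 on DN-TRF2 arrays. High values occurred in both groups, in GFP control replicate 1 and DN-TRF2 replicates 1 and 3, and the difference was 0.20 ± 0.21. RAB31, of trans-Golgi to endosome traffic, gave 9.16, 10.001 and 9.71 against 9.72, 9.72 and 9.93, a difference of 0.17 ± 0.21 with overlapping groups that was -0.067 without GFP control replicate 1. RAB22A differed by 0.16 ± 0.25, with GFP control replicate 2 at 9.78 and the other controls at 10.87 and 10.61. RAB21 (-0.05 ± 0.16), of integrin traffic, and RAB25 (-0.07 ± 0.15), an epithelial relative of RAB11A, were the remaining members.

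Late endosome and lysosome GTPases were 8 genes, 5 with a higher and 3 with a lower mean, and a median difference of 0.08. RAB7B, of transport from endosomes to the trans-Golgi, had the highest difference of all members. Control arrays gave 6.52, 6.71 and 7.12 and DN-TRF2 arrays 7.09, 7.12 and 7.22, so that GFP control replicate 3 lay inside the DN-TRF2 range. The difference was 0.36 ± 0.17, a 1.28-fold level, with an unadjusted limma p of 0.0596 and an adjusted p of 1.00. With the replicate number as a block these were 0.0330 and 0.898. Both spots were higher, by 0.22 ± 0.20 and 0.50 ± 0.17, and at the dimmer spot the groups did not overlap. RAB7B was dim, with deposited intensities, averaged over its spots, of 43.3, 56.5 and 133 on control arrays and 87.5, 98.9 and 137 on DN-TRF2 arrays. Its difference depended on the offset, at 0.88 with an offset of 1 and 0.24 with 100, and correcting for array position gave 0.21.

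RAB7A, the GTPase of late endosomes and of their fusion with lysosomes, gave 10.89, 10.61 and 10.76 on control arrays and 10.84, 10.68 and 10.92 on DN-TRF2 arrays. Its difference was 0.06 ± 0.13, the groups overlapped, and its spots gave 0.07 ± 0.14 and 0.06 ± 0.17. RAB9A, which returns receptors from late endosomes to the Golgi, gave 11.48, 12.15 and 12.11 against 11.93, 12.29 and 12.29, higher at each replicate number with overlapping groups. The difference of 0.25 ± 0.20 was 0.032 without GFP control replicate 1, the array with its lowest value. RAB34, which positions lysosomes, gave 7.65, 7.52 and 7.46 against 7.66, 7.79 and 7.65, a difference of 0.15 ± 0.12 with GFP control replicate 1 inside the DN-TRF2 range.

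RAB32 and RAB38 are close relatives that serve lysosome-related organelles such as melanosomes. RAB32 gave 8.16, 8.51 and 8.15 on control arrays and 7.87, 7.99 and 8.19 on DN-TRF2 arrays, a difference of -0.26 ± 0.15 in which DN-TRF2 replicate 3 lay among the controls. RAB38 gave 10.20, 10.21 and 10.34 against 10.20, 9.82 and 10.34, and its difference of -0.14 ± 0.16 rested on DN-TRF2 replicate 2, without which it was 0.014. RAB24, linked to autophagy, gave 7.90, 7.88 and 7.65 against 7.79, 7.92 and 7.72, a difference of -0.0024 ± 0.13, and its spots gave 0.02 ± 0.21, -0.09 ± 0.15 and 0.06 ± 0.14. RAB29, which partners the kinase LRRK2, differed by 0.10 ± 0.26, with control values from 10.58 to 11.76.

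Exocytic GTPases were 6 genes, 4 with a higher and 2 with a lower mean, and a median difference of 0.02. RAB26, a RAB of secretory granules, gave 9.78, 9.50 and 10.10 on control arrays and 9.87, 10.11 and 10.07 on DN-TRF2 arrays, a difference of 0.22 ± 0.17 with overlapping groups. RAB8A, of Golgi to surface transport, gave 8.45, 8.02 and 8.21 against 8.13, 7.94 and 8.14, lower at each replicate number, and differed by -0.16 ± 0.15. RAB13, which acts at cell junctions and in neurite outgrowth, gave 13.28, 12.78 and 13.29 against 13.24, 13.38 and 13.21. GFP control replicate 2 was the low array, and the difference of 0.16 ± 0.16 was -0.015 without it. RAB10, RAB3B and RAB3D, RABs of exocytosis, differed by 0.04 ± 0.18, -0.10 ± 0.17 and 0.01 ± 0.12. The RAB3 paralogs left out by the rule had lower means, RAB3A by -0.55 ± 0.18 and RAB3C by -0.23 ± 0.13, each with a limma adjusted p of 1.00.

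The other ARL genes beside ARL2 were ARL3, which delivers lipid-modified proteins to cilia, at -0.11 ± 0.18, ARL15 at -0.12 ± 0.20 and ARL11 at 0.12 ± 0.20. ARL11 gave 10.54, 10.69 and 11.09 on control arrays and 11.26, 10.68 and 10.73 on DN-TRF2 arrays, with the highest value on DN-TRF2 replicate 1.

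**Figure D4:**
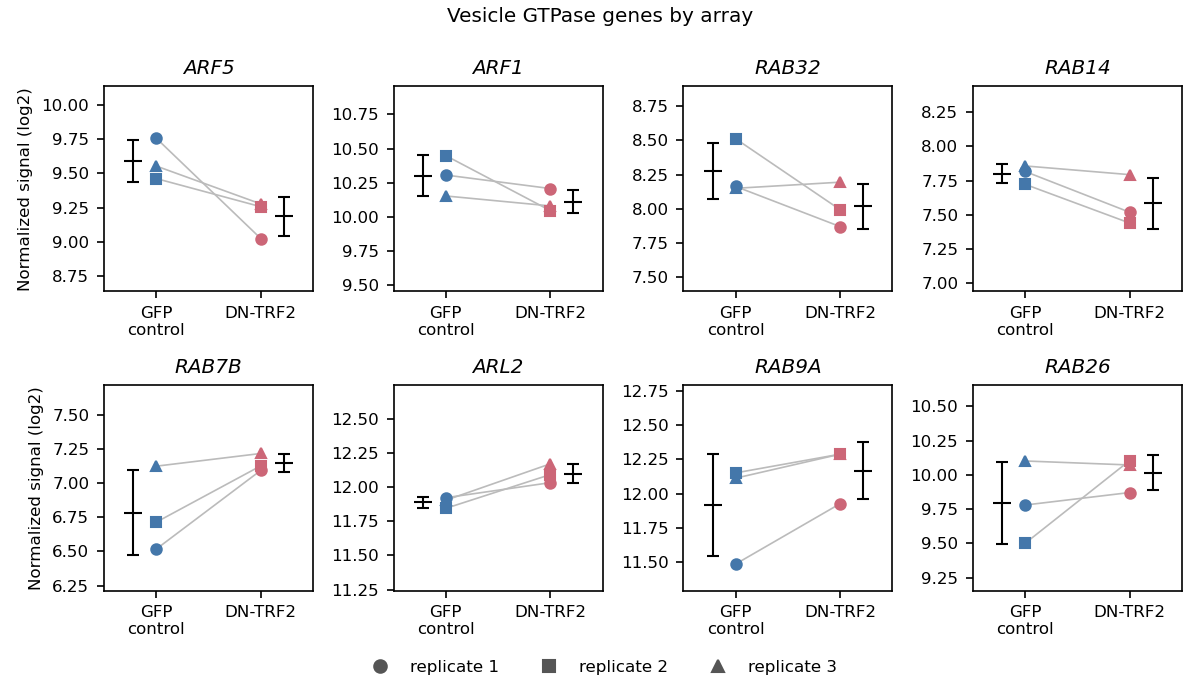
Normalized signal (vertical axes, log2, each spanning the same range) on each of the 3 GFP control (blue) and 3 DN-TRF2 (red) arrays for 4 members with lower and 4 with higher means in DN-TRF2; grey lines join arrays of one replicate number, and black bars give mean ± SD (n = 3). The groups part in ARF5 and ARL2, and overlap in the other panels.

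The GFP control arrays were the more variable for these genes. The SD was larger in the controls for 33 of 41 members (80.5%, beside 78.4% of all genes), with a median of 0.24 (log2) against 0.12 in DN-TRF2; over all genes these were 0.22 and 0.12. GFP control replicate 2 was the control farthest from the other controls in 17 members (41.5%, beside 46.0% of all genes), replicate 1 in 13 (31.7%, beside 29.5%) and replicate 3 in 11 (26.8%, beside 24.5%). RAB2A, RAB29, RAB22A and RAB1A had the largest control SDs, at 0.66, 0.59, 0.57 and 0.50, against 0.22, 0.14, 0.06 and 0.06 among DN-TRF2 arrays. In RAB29 and RAB1A replicate 2 was the high control, and in RAB2A and RAB22A the low one. At all 3 replicate numbers the DN-TRF2 array was the higher in 5 members (12.2%, beside 11.5% of all genes): ARL2, RAB34, RAB35, RAB7B and RAB9A. The 5 that were lower at all 3 numbers were ARF1, ARF5, RAB14, RAB38 and RAB8A.

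The proteins that load, switch and use these GTPases were measured in part: 78 of 187 listed genes had a spot. Of these 44 had a higher mean in DN-TRF2 (56.4%, beside 48.0% of all genes) and 34 a lower one, with a median difference of 0.03, beside -0.0067 over all genes. None passed limma's adjusted threshold (0 of 78). At an unadjusted p under 0.05 there was 1 higher (1.28%, beside 2.49% of all genes) and 0 lower (0.00%, beside 1.07%). The groups did not overlap in 2 genes upward (2.56%, beside 4.70%), TBC1D13 at 0.04 ± 0.11 and SEC24A at 0.11 ± 0.11, and in 2 downward (2.56%, beside 4.25%), RIN1 and KIF20A.

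Genes of prenylation and membrane cycling had 6 of 9 higher means. GDI2, a GDP dissociation inhibitor that extracts RABs from membranes, differed by 0.20 ± 0.14, NMT2, a myristoyltransferase, by 0.21 ± 0.15, PRAF2 by 0.20 ± 0.17 and RABAC1, a prenylated RAB acceptor, by -0.20 ± 0.21. RAB exchange factors and GTPase-activating proteins had 5 of 14 higher means. The 1 partner at an unadjusted p under 0.05 was TBC1D17, a GTPase-activating protein, at 0.46 ± 0.19, with a limma adjusted p of 1.00. It gave 8.88, 8.74 and 9.40 on control arrays and 9.56, 9.59 and 9.26 on DN-TRF2 arrays, so the groups overlapped. RIN1, a RAB5 exchange factor, differed by -0.26 ± 0.16, DENND5A by -0.41 ± 0.29 and TBC1D7 by -0.15 ± 0.15.

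ARF exchange factors and GTPase-activating proteins had 5 of 9 higher means, with the cytohesins CYTH3 and CYTH2, exchange factors for ARF proteins, at 0.34 ± 0.22 and -0.18 ± 0.18. PSD3, an exchange factor for ARF6, differed by 0.18 ± 0.13 and ARAP3, an ARF GTPase-activating protein, by -0.16 ± 0.14. TBCD in this list is a tubulin-folding cofactor that binds ARL2, not an ARF regulator. Effectors and binding partners had 15 of 20 higher means (beside 48.0% of all genes) and a median of 0.10, beside -0.0067 over all genes. BICD1, a dynein adaptor that binds RAB6, differed by 0.39 ± 0.23, RPH3A, a RAB3 effector, by 0.26 ± 0.20 and RAB5IF by 0.19 ± 0.13. KIF20A, a kinesin first described as a RAB6 partner and known for its part in cytokinesis, differed by -0.29 ± 0.15. Coat proteins had 14 of 27 higher means, with the clathrin light chain gene CLTB at 0.24 ± 0.14, the COPI subunit genes COPB2 and COPZ2 at -0.22 ± 0.14 and 0.21 ± 0.20, and the adaptor subunit gene AP1S2 at -0.17 ± 0.14. In each of the 5 lists 0 members passed the adjusted threshold.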

How the data were processed

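Values are linear intensity per spot as deposited by the authors, 1 channel per array; for image software, background treatment and scaling, the sources used here give nothing. The value 10 recurs as a stand-in: 384 blank positions, every 25th spot, were dropped, as were 47 more that read 10 throughout. Spots were named through the platform annotation, updated by gene ID to RefSeq symbols (GRCh38.p14; 8493 of 8517 annotated spots matched); 8451 spots had 1 gene, 21 several and 697 none listed.

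An offset of 50 was added, log2 taken, arrays quantile-normalized and spots of one gene averaged. All 6255 genes (and, for single spots, all 9169 spots) were tested with limma 3.58.1 in R 4.3.3 (lmFit and eBayes, two-sided, Benjamini-Hochberg over all, threshold 0.05), checked on simulated data. Errors beside differences are limma standard errors. The number of arrays limits the precision. With 3 against 3 arrays no separate test of single values was run.

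Members and lists were chosen with earlier results of these data known. Values on every array were given by rule for the 8 members of smallest p in each direction, RAB1A, RAB5A, RAB6A, RAB7A, RAB11A, ARF1, ARF6 and members with at least 3 spots. Per partner list the 4 genes of smallest p were named with their differences. Other genes named, and other values on single arrays, were chosen after they were seen. Deviations from group means correlated between same-numbered arrays at 0.390, 0.296 and 0.246, so the numbers were taken as pairs from the values; the labels name 3 independent experiments. The reported fit has no block, so its standard errors and intervals leave this pairing out. With the block the standard error was smaller for most members, as for RAB9A (0.13 in place of 0.20). For the others it was slightly larger, as for ARF5 (0.15 in place of 0.14). Alternatives covered offset, normalization, dim spots, spot choice, array weights, moderation, replicate block, each array left out, and a position correction over runs of 200 spots. The 34 promoters of 300 bases come from RefSeq, GRCh38.p14.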

Additional observations from a re-analysis of the deposited data

How the results depend on the processing

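Throughout, 0 genes and 0 members passed limma's adjusted threshold; the smallest adjusted p over all genes was 0.0801, with the replicate block and position correction together, an alternative chosen, like the position correction alone, after seeing the data. The members' median difference moved by less than its spread over arrays, and 12 of the 24 members shown by rule kept their sign in every fit that gave them a value; 8 of the 24 had none without the spots below median signal.

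Members higher at an unadjusted p under 0.05 numbered 1 at offsets of 1 and 10 and with the replicate block (RAB7B), 1 with the spot of highest signal (ARF3) and 1 without moderated variance (ARL2), and from 0 to 2 with an array left out. The 2 higher ones of 41, RAB26 and RAB7B, came with GFP control replicate 3 left out, where 340 of 6255 genes were higher. Lower members numbered from 0, when replicate 1 of either group was dropped, to 2 of 41 (ARF5 and RAB2A), when GFP control replicate 2 was. In that last fit 238 of 6255 genes were lower. Over all genes, 66 were higher and 16 lower without the spots below median signal, where 3308 genes were tested. Lower genes numbered 152 with array weights, 123 without moderation and 121 with the replicate block; block and position correction together gave 255 higher and 186 lower. With 1 array left out, higher genes ran from 70 without DN-TRF2 replicate 2 to 340 without GFP control replicate 3 and lower genes from 31 to 238 (without GFP control replicate 2). The block changed no call at the adjusted threshold.

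Signs turned for the following members, and the cause was not tested. With the position correction, and again with the block added, ARF4 gave -0.065, ARF6 0.045, RAB13 -0.012, RAB6A -0.050 and RAB7A -0.016. Scaling to the median gave ARF3 -0.0052, RAB24 0.0098 and RAB7A -0.0084. Array weights gave ARF4 -0.0068 and RAB24 0.045. RAB24 was 0.050 and 0.024 at offsets of 1 and 10. The spot of highest signal gave ARF6 0.040, RAB24 0.024 and RAB5A 0.11. With 1 array left out the ranges were -0.030 to 0.17 for ARF3, -0.058 to 0.12 for ARF4, -0.015 to 0.25 for RAB13, -0.34 to 0.15 for RAB1A, -0.083 to 0.042 for RAB24, -0.067 to 0.35 for RAB31, -0.24 to 0.014 for RAB38, -0.28 to 0.056 for RAB4A, -0.20 to 0.027 for RAB5A, -0.052 to 0.17 for RAB6A and -0.0073 to 0.13 for RAB7A.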
